A study of Mus musculus with 44 samples.

Results

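Whole brains of 26-month-old mice were compared with those of 12-month-old mice, all on the control diet (CD). The 13 brains were taken by their labels, 8 at 26 months and 5 at 12 months, out of the 44 libraries of the series (28 of brain and the rest of liver). The animals were C57BL/6 males bought from a National Institute on Aging colony, with no genotype or transgene named in the sources used here. Both diets were begun at the age of 12 months. The control diet was rich in carbohydrate and low in fat. The 12-month mice had eaten it for a week and the 26-month mice since middle age, so age and time on the diet cannot be told apart. RNA-seq of total RNA after removal of ribosomal RNA gave 1 count per gene and brain, and levels below are CPM, a gene's count brought to a common library size, scaled by the trimmed mean of M values. Nothing in the labels says how the brains were cut or on which day each was processed. Each brain is labelled as a sample of its own. The edgeR p-values below measure the spread between such samples, estimated in 1 fit over all 28 brains, those on the other diet included.

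The adult brain holds its own macrophages, the microglia, which prune synapses, clear debris and make much of the tissue's complement. With age and in disease, part of them takes on the so-called disease-associated state, with lysosomal, lipid-handling and phagocytic genes, while astrocytes raise filament and acute-phase genes. The brain is wrapped in meninges, whose fibroblasts make collagens, proteoglycans, retinoic acid enzymes and organic anion transporters. In whole-brain RNA, fewer cells of a type and less RNA per cell cannot be told apart.

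Total counts per brain lay between 9873884 and 12467965 at 12 months and between 7447742 and 12744415 at 26 months (two-sided exact permutation test of the means, p = 0.517). Synaptic genes summed to 23135 to 26579 CPM at 12 months and 16321 to 26678 CPM at 26 months, so neurons were plainly present, while skeletal muscle, cartilage and epithelium markers summed to at most 48.5 CPM in any of the 13 brains. The libraries of the 2 ages also differed in what else they held. Genes with at least 1 count numbered 30019 to 31181 at 12 months and 32957 to 44304 at 26 months, with no overlap (exact permutation p = 0.00622). A repeat-like transcript, Gm10800, took 0.00046% to 0.0013% of the counts at 12 months and 0.055% to 1.22% at 26 months (exact permutation p = 0.0466), highest in 26-month brain 5, which was also the shallowest library. The brains of both ages fed the ketogenic diet (KD) split the same way, 0.00060% to 0.0017% at 12 months and 0.035% to 0.991% at 26 months. This signal cannot be told apart from age. The 3 old brains with under 0.1% of Gm10800 (brains 1, 2 and 6) are therefore also set on their own against the young brains for the main gene lists below. Their shares of 0.075%, 0.061% and 0.055% still lay above every young brain, and all 3 were high in hindbrain markers. With 3 old brains in place of 8, calls can also be lost through the smaller number alone.

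Of 22079 genes tested, 221 rose with age and 57 fell (edgeR quasi-likelihood test, adjusted p under 0.05 over all genes tested). These calls are 1% and 0.258% of the genes tested, 1.26% together. Differences were modest: the median absolute log2 fold change was 0.99 among the genes that rose and 0.87 among those that fell, and 108 and 21 of them passed a log2 fold change of 1. The 5 and the 8 brains did not overlap at all for 128 of the 221 and for 34 of the 57, where 0.924% and 0.349% of all genes tested separated the 2 ages in that way. Protein-coding genes made up 193 and 49 of the calls. The 12 genes listed here as the Gm10800 family were all among the 221. They were named with earlier results of these data known, so their number is no test of the family. With only brains 1, 2 and 6 to stand for the old group, 70 genes rose and 18 fell, and 58 and 16 of these were among the calls above. The counts were also smaller with any 1 young brain left out. Genes that rose numbered 128, 108, 109, 155 and 109 without 12-month brains 1, 4, 7, 13 and 16, and genes that fell 29, 44, 41, 46 and 38. All 221 and 57 genes kept their sign in each of these fits, which hold fewer young brains. The genes were called in a fit that shares nearly all of these brains, so kept signs are no separate test. In a fit of the 13 CD brains alone, 90 genes rose and 31 fell.

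**Figure D1:**
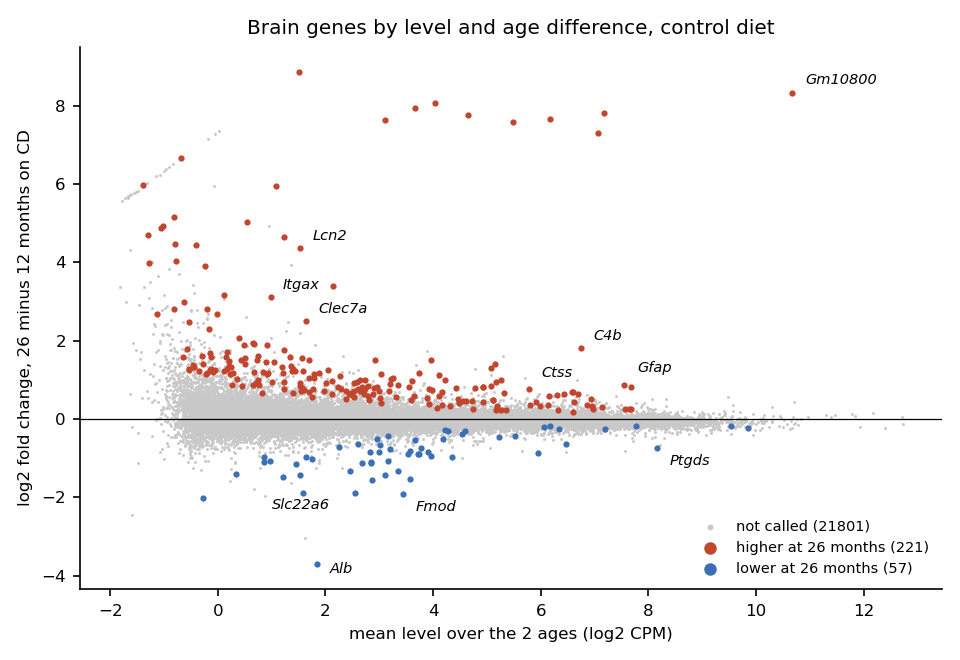
Each point is 1 of the 22079 genes, placed by its mean level in the 2 ages (horizontal axis, log2 CPM) and its log2 fold change from 12 to 26 months on CD (vertical axis); red points rose (221), blue points fell (57) and grey points were not called. Gm10800 lies near the top, the phagocyte genes Itgax (3.11) and Clec7a (2.51) lie well above 0, and Fmod (-1.92), Slc22a6 (-1.88) and Alb (-3.71) lie at the bottom.

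Genes of the disease-associated state of microglia were higher in the old brains. Of 39 members tested out of 40 listed, 20 rose and none fell, a share of 51.3% against 1% of all genes, and 38 of the 39 fold changes were above 0. The median log2 fold change was 0.48, where the median over all genes tested was -0.0020. In brains 1, 2 and 6 against the 5 young brains 13 of 38 tested members still rose, with a median of 0.49. Leaving out 1 brain at a time gave 15 to 20.

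Itgax (chr7:128129547-128150657), the integrin alpha chain CD11c of phagocytes and dendritic cells, stood at 0.183, 0.409, 0.349, 0.730 and 0.281 CPM in 12-month brains 1, 4, 7, 13 and 16. At 26 months its lowest, median and highest values were 1.69, 3.01 and 6.98 CPM. Every old brain lay above every young one, and the log2 fold change was 3.11 ± 0.35 (SE; edgeR adjusted p = 1.0e-05). Clec7a (chr6:129461591-129472779), which encodes the beta-glucan receptor Dectin-1, had 0.915, 0.716, 1.13, 1.05 and 0.750 CPM in the young brains. Its old values ran from 1.89 through a median of 5.35 to 7.98 CPM, again with no overlap. The difference was 2.51 ± 0.31 (adjusted p = 3.27e-05). Both genes are scarce in whole brain, and both kept their call with any 1 brain left out.

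Ctss (chr3:95526786-95556403), the cysteine protease cathepsin S of antigen-presenting cells, is far better counted and moved less. It had 39.0, 37.9, 38.2, 50.04 and 37.9 CPM in the young brains, and 62.2, 67.4 and 78.6 CPM as the lowest, median and highest of the old ones. The groups were well separated although young brain 13 stood above the other 4, and the log2 fold change was 0.76 ± 0.09 (adjusted p = 1.0e-05).

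Among 13166 tested gene symbols with a RefSeq promoter (GRCm38.p6, 250 bases before to 50 after the start), 154 rose and 39 fell. Windows of 3 genes that rose are shown because they hold letters linked to immune transcription, namely the PU.1 letters GAGGAAGT and the consensus letters of the interferon-stimulated response element and of NF-kB, read on both strands. Capitals mark the matches. Ctss (chr3:95526536-95526835, plus strand) has the interferon-response letters 21 bases before the start and the PU.1 letters in reverse at 2 bases before it. Mmp12, a macrophage elastase (chr9:7344147-7344446, plus strand), has the PU.1 letters in reverse at 88 bases before the start. B2m, the light chain of MHC class I (chr2:122147437-122147736, plus strand), has the interferon-response letters at 139 and the NF-kB letters in reverse at 126 bases before the start.
Ctss: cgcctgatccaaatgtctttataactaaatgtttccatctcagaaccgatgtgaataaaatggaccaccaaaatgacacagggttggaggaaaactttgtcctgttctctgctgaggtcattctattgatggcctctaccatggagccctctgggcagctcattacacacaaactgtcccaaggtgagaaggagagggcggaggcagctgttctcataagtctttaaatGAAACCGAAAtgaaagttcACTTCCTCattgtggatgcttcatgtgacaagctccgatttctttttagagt
Mmp12: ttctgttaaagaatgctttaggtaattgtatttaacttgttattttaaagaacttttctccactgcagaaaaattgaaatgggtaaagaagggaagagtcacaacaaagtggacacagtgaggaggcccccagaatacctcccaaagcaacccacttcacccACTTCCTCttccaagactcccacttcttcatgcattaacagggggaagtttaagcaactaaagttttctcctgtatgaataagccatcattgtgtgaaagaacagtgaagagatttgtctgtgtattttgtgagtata
B2m: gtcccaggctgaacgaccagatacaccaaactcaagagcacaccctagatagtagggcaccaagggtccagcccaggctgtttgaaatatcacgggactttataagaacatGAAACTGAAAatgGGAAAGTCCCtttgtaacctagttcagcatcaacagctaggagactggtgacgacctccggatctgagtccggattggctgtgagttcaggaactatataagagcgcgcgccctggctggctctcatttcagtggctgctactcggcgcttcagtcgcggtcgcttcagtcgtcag

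The PU.1 letters were found in 12 of the 154 windows of genes that rose (7.79%), in none of the 39 of genes that fell and in 3.30% of all 13166. The interferon-response letters were in 7.14% of the first, 5.13% of the second and 3.59% of all, and in 22 of the 39 windows of the interferon-induced list. The NF-kB letters were in 2 of the 154 and in 0.190% of all. Other letters searched on both strands were CCGGAAGT (4.55% of the windows of genes that rose and 7.47% of all), TTGCGCAA (none and 0.296%), TGANTCA (12.99% and 6.62%), TGACGTCA (0.649% and 3.19%), CACGTG (7.79% and 10.6%), the X box of MHC class II promoters (none and 0.190%), TATAAA (17.5% and 9.73%) and TGTTTAC (1.95% and 3.15%). These shares describe letters in windows of a fixed length and were not tested.

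Other microglial and phagocyte genes that rose fell into 3 kinds. Surface and signalling genes included Cd52, a small glycoprotein of leukocytes, Tlr2 and Tlr13, sensors of bacterial lipoproteins and bacterial ribosomal RNA, and Fcgr2b, the inhibitory receptor for IgG. Cd52 went from 0.614 to 1.78 CPM across the young brains to 2.46 to 4.99 CPM across the old ones, with no overlap (log2 1.60 ± 0.22, adjusted p = 0.000100). The log2 fold changes of the others were 1.17 for Tlr2, 1.06 for Tlr13 and 1.003 for Fcgr2b (adjusted p = 0.00354, 0.00147 and 0.000558). Lysosome and phagosome genes included Cd68, a macrophage scavenger receptor of the lysosome, Gpnmb, a glycoprotein of phagocytes with a heavy lysosomal load, Lyz2, lysozyme, and Slc11a1, the phagosomal metal transporter NRAMP1. Gpnmb had 4.02, 3.68, 2.71, 3.73 and 5.44 CPM at 12 months and 7.50, 10.6 and 18.3 CPM at the low end, middle and high end at 26 months (1.501 ± 0.22, adjusted p = 0.000269). For Cd68, Lyz2 and Slc11a1 the log2 fold changes were 0.89, 1.17 and 1.16, and all 8 old brains exceeded the young maximum for each of the 3. The third kind was made of secreted or intracellular factors. Csf1, the growth factor on which microglia depend, rose by 0.48 ± 0.09 (adjusted p = 0.00259). Naip2, an inflammasome sensor with near-identical neighbours that may share its reads, rose by 1.22. Mmp12 had no count in 3 of the 5 young brains and at most 0.183 CPM in the others, against 0.361 to 3.12 CPM in the old ones (adjusted p = 0.000438), and no fold is given at such counts.

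**Figure D2:**
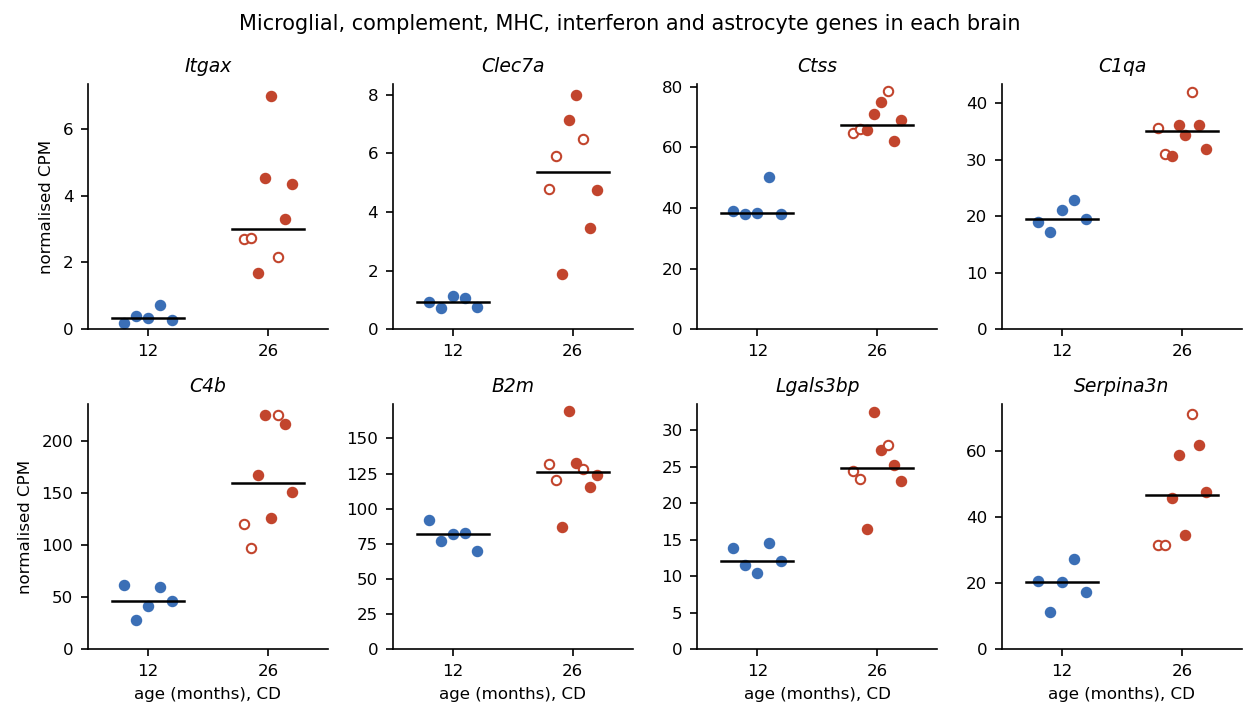
Each panel shows 1 gene that rose, with normalised CPM on a linear axis from 0 and a point for each brain of the 2 ages; the black bar is the group median and open red points are the 3 old brains with under 0.1% of Gm10800. For 7 of the 8 genes no old brain reaches down to the young range, and for B2m 1 old brain (87.1 CPM) falls within it.

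Genes that mark resting microglia gave few calls. Of 27 tested out of 28, 3 rose (11.1%, against 1% of all genes) and none fell. The median log2 fold change was 0.17, and 21 of the 27 were above 0. The 3 were Spi1, which encodes the myeloid transcription factor PU.1 (0.78 ± 0.18, adjusted p = 0.0227), Cd33, a sialic acid receptor (0.59 ± 0.14, adjusted p = 0.0335), and Csf3r, the receptor for granulocyte colony-stimulating factor (0.57 ± 0.14, adjusted p = 0.0443). All 8 old brains were above all young brains for each of them. These calls were thin: that of Spi1 was lost with 3 of the 13 brains left out in turn, Cd33 with 7 and Csf3r with 10, most of all without 12-month brains 7, 4 and 7 (adjusted p = 0.0917, 0.0931 and 0.141). In the 3 old brains low in Gm10800 none of the 3 genes was called, with fold changes of 0.68, 0.53 and 0.58. The difference between the 2 microglial lists was not tested.

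Lysosomal genes gave a smaller share of calls than the disease-associated list. Among 57 members tested, 6 rose (10.5%, against 1% of all genes) and none fell, 44 were above 0 and the median log2 fold change was 0.10. The count was 4 of 57 in old brains 1, 2 and 6 alone, with a median of 0.16. Besides Ctss and Cd68, Ctsz, the carboxypeptidase cathepsin Z, rose from 17.7, 18.3, 22.7, 19.1 and 21.3 CPM to 22.3, 28.3 and 29.4 CPM (lowest, median, highest; 0.47 ± 0.08, adjusted p = 0.00158), and 7 of the 8 old brains exceeded the young maximum. Lamp1, an abundant protein of the lysosomal membrane, went from 167 to 208 CPM across the young brains to 199 to 237 CPM across the old ones (0.25 ± 0.06, adjusted p = 0.0418), and lost its call with 9 of the 13 brains left out, most of all without 12-month brain 4 (adjusted p = 0.139).

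The start of the classical complement cascade was higher in the old brains. Complement C1q, the sensor that opens it, is built from 3 chains made by microglia. C1qa had 18.9, 17.2, 21.1, 22.95 and 19.5 CPM in the young brains and 30.6, 35.1 and 42.1 CPM at the ends and middle of the old group (log2 0.80 ± 0.09, adjusted p = 1.45e-05). C1qb went from 19.3 to 23.8 CPM to 31.5 to 45.3 CPM (0.81 ± 0.11, adjusted p = 7.95e-05). The ranges were apart for both genes. C1qc, the remaining chain, named after its value was seen, was at 0.83 ± 0.12 (adjusted p = 0.000109). C4b (chr17:34728380-34743882), the next component of the cascade and also an astrocyte and oligodendrocyte gene in old brain, stood at 61.3, 27.6, 41.2, 59.4 and 46.7 CPM at 12 months. At 26 months it spanned 97.4, 159.7 and 226 CPM, a log2 fold change of 1.82 ± 0.27 (adjusted p = 0.000261). Over the whole list of complement components, regulators and receptors, 7 of 25 tested rose (28%, against 1% of all genes). None fell, and the median was 0.33. The count stayed at 7 with each of the 13 brains left out in turn. In old brains 1, 2 and 6 it was 5 of 25, with a median of 0.10.

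MHC class I presentation followed. Of 23 genes tested, 6 rose (26.1%, against 1% of all genes) and none fell, 19 were above 0 and the median was 0.46. Old brains 1, 2 and 6 alone gave 4 of 23, with a median of 0.37. B2m had 92.3, 77.2, 82.1, 82.6 and 70.0 CPM in the young brains and 87.1, 126 and 169 CPM as the lowest, median and highest of the old ones. The lowest old value, brain 3, lay inside the young range and the other 7 did not (0.64 ± 0.10, adjusted p = 0.00074). H2-K1, a classical heavy chain, rose by 0.77 ± 0.14 (adjusted p = 0.00212) with 8 of 8 old brains above the young maximum. H2-Q7, a nonclassical heavy chain, rose by 1.75 ± 0.31 (adjusted p = 0.00212), although Qa family members are so alike that reads may be shared among them. MHC class II genes, which mark antigen-presenting cells, gave 1 call in 8 tested (12.5%, against 1% of all genes) and a median of -0.06. The call was H2-DMb1, a peptide-loading chaperone (0.84 ± 0.21, adjusted p = 0.0393). That call was lost with 10 of 13 brains left out (at most 0.127, without 12-month brain 4).

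Interferon-induced genes leaned the same way with few calls. Of 54 tested, 7 rose (12.96%, against 1% of all genes) and none fell. Of the 54, 50 were above 0 and the median log2 fold change was 0.56. Lgals3bp, a secreted scavenger receptor-like protein, had 13.9, 11.6, 10.5, 14.5 and 12.1 CPM at 12 months and 16.4, 24.8 and 32.4 CPM at 26 months (0.997 ± 0.16, adjusted p = 0.000814). No old brain was as low as the young group. Ifitm3, which blocks viral fusion, went from 7.23, 3.89, 4.10, 4.54 and 3.56 CPM to 6.54, 8.17 and 9.61 CPM (0.79 ± 0.15, adjusted p = 0.00608). Young brain 1 was the only young brain to reach into the old range. Bst2, the tether that retains budding virions, rose by 1.49 ± 0.34 from under 1.3 CPM (adjusted p = 0.0202), and lost the call without 4 of the young brains in turn (at most 0.0867, without brain 7). The list is sensitive to the libraries: 2 to 10 members rose with 1 brain left out, and 1 of 54 in old brains 1, 2 and 6, where its median was 0.54. It also depended on the tool, as 14 of 54 rose with DESeq2 and 12 with limma voom. With the receptor signal of each library as a covariate (described below) 1 of 54 rose and the median was 0.39.

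Cytokines and NF-kB targets gave few calls, though a larger share than all genes. Of 47 chemokines, cytokines and receptors tested, 4 rose (8.51%), and of 34 TNF and NF-kB targets 4 rose (11.8%), against 1% of all genes. The medians were 0.15 and 0.19, and no gene fell in either list. No member of either list was called in old brains 1, 2 and 6 alone (0 of 46 and 0 of 34), where the medians were 0.11 and 0.15. Ccl3, a macrophage chemokine, had 0.732, 0.205, 0.262, 0.405 and 0.375 CPM in young brains and 0.548, 1.25 and 2.26 CPM as the lowest, median and highest in old ones (1.60 ± 0.38, adjusted p = 0.0327). Old brains 7 and 8 lay within the young range and the other 6 did not. Tgfb1, the cytokine that keeps microglia in their resting state, rose by 0.48 ± 0.12 (adjusted p = 0.0397), and Ccl9, a myeloid chemokine, by 0.88 ± 0.22 (adjusted p = 0.0443). All 3 calls depended on the brains included, being lost with 6, 8 and 10 of the 13 left out (at most 0.113, 0.145 and 0.144, without 12-month brains 7, 4 and 7).

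Lymphocyte and blood myeloid markers were scarce at both ages. No member rose or fell among 10 T and NK cell markers and 8 B and plasma cell markers tested, out of 33 and 25 listed. Their summed levels were 19.5 to 28.1 CPM and 40.4 to 51.3 CPM at 12 months, against 19.7 to 37.7 CPM and 28.9 to 62.4 CPM at 26 months. Monocyte and border macrophage markers gave 1 call in 12 tested, Tlr2 (8.33%), and neutrophil markers 2 in 4 (50%), against 1% of all genes. The 2 neutrophil markers were Lcn2 and Csf3r, both also made by brain cells. Unadjusted p-values under 0.05 numbered 1725 upward and 887 downward over all genes tested.

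Reactive astrocyte genes rose in part, and unevenly across old brains. Of 39 tested, 5 rose (12.8%, against 1% of all genes) and none fell (median log2 fold change 0.36). That count was 1 of 39 in old brains 1, 2 and 6, 2 of 39 with the receptor covariate and 1 of 39 without the 3 brains high in Plin4 described next. The medians there were 0.33, 0.31 and 0.24. Gfap, the astrocyte filament, had 199, 96.9, 116, 128 and 122 CPM at 12 months and 158, 247 and 307 CPM at 26 months (0.88 ± 0.21, adjusted p = 0.0320), with old brain 3 below young brain 1. Serpina3n, a secreted protease inhibitor, went from 20.7, 11.4, 20.4, 27.2 and 17.2 CPM to 31.4, 46.7 and 71.0 CPM without overlap (1.30 ± 0.27, adjusted p = 0.0100). Lcn2, the iron-siderophore carrier lipocalin 2, was the least even: 0.451, 0.545, 12.2, 0.723, 9.73, 12.4, 6.48 and 1.45 CPM in old brains 1 to 8, and at most 0.549 CPM in the young (4.36 ± 1.02, adjusted p = 0.0275). So 4 old brains, 3, 5, 6 and 7, carried nearly all of it. The call of Gfap was lost with 6 of 13 brains left out and that of Lcn2 with 7 (at most 0.111 and 0.0927, without 12-month brains 4 and 7). The fifth call was Osmr, the oncostatin M receptor, at 0.81 (adjusted p = 0.0359), named after its value was seen. None of 23 astrocyte identity genes was called (median 0.10).

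Plin4, a lipid droplet coat protein, split the old brains. It stood at 16.7, 22.2, 16.9, 23.1 and 19.2 CPM in the young and at 16.3, 30.4, 91.0, 25.0, 28.8, 101, 96.5 and 24.0 CPM in old brains 1 to 8, so that brains 3, 6 and 7 formed the high end (log2 1.40 ± 0.36, adjusted p = 0.0452). Genes induced by glucocorticoids, to which Plin4 belongs here, were all 25 above 0 with a median of 0.52. Their calls made up 16% of the list, against 1% of all genes. Of the 25, 4 rose: Plin4, Lcn2, Mt1, a metal-binding protein (0.52 ± 0.09, adjusted p = 0.00243), and Cebpd, a stress-induced transcription factor (0.97 ± 0.24, adjusted p = 0.0359). In old brains 1, 2 and 6 alone none of the 25 was called, with a median of 0.47, and with the receptor covariate 1 was. Without brains 3, 6 and 7 the median was 0.17 and 1 of the 25 was called. Set against the young mean on the log2 scale, the list's median was 0.79, 0.88 and 0.54 in brains 3, 6 and 7. It was 0.035 to 0.34 in the other 5 old brains and -0.030 to 0.11 in the young. In brains 3, 6 and 7 Ly6a and Ly6c1, surface antigens of brain endothelium from a family of close relatives, were high as well: Ly6a had 38.1, 40.4 and 28.5 CPM there, 12.2 to 27.4 CPM in the other 5 old brains and 9.97 to 12.8 CPM in the young (1.11 ± 0.25, adjusted p = 0.0223). Without those 3 brains, picked by their Plin4 level after the data were seen, its difference was 0.59 (adjusted p = 0.200), and that of Ly6c1 was 0.51 (adjusted p = 0.116) in place of 0.83. Apod, a lipid-binding lipocalin of glia, behaved likewise, with 406, 400 and 284 CPM in brains 3, 6 and 7 and 177 to 240 CPM in the others, against 124 to 181 CPM in the young (0.82 ± 0.18, adjusted p = 0.0195). Without the 3 brains 18 of 38 disease-associated microglial genes were called, and none of 27 genes of resting microglia. Beside Ly6a and Ly6c1, 1 of 43 endothelial genes rose, the glucose transporter Slc2a1 (0.65, adjusted p = 0.0383, named after its value was seen), and 1 fell, Slc22a8, an organic anion transporter described with the meninges. Calls that rose were 6.98% of the 43, against 1% of all genes. None of the 43 rose in old brains 1, 2 and 6 alone or with the receptor covariate, where the medians were 0.11 and 0.15.

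Myelin genes lay above 0 throughout, with few calls. All 32 tested had a positive fold change, with a median of 0.41, and 2 rose (6.25%, against 1% of all genes). Hapln2, a link protein of the node of Ranvier, had 23.05, 21.4, 24.1, 32.9 and 26.6 CPM at 12 months and 37.0, 49.3 and 77.6 CPM at 26 months (0.99 ± 0.19, adjusted p = 0.00535). Trf, the iron carrier transferrin that oligodendrocytes make in brain, went from 3.23 to 5.11 CPM to 6.70 to 9.10 CPM (0.94 ± 0.18, adjusted p = 0.00494). Neither gene overlapped between the ages. Nkx6-2, an oligodendrocyte transcription factor, was at 0.68 ± 0.18 with an adjusted p of 0.0583. The young brains themselves spread widely for the list, from -0.38 to 0.33 around their mean on the log2 scale, and young brain 4 was the low one. Members called numbered 2 to 6 with 1 brain left out, and 1 of 32 in old brains 1, 2 and 6, where the median was 0.48. With DESeq2 9 of 32 rose, and with limma voom 5.

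Ribosomal protein genes differed by small amounts, and 6.10% of those tested rose, against 1% of all genes. Of 82 tested, 80 were above 0, the median difference was 0.17 on the log2 scale and 5 rose, among them Fau (55.8 CPM as the young median and 72.2 CPM as the old one, 0.34 ± 0.07, adjusted p = 0.00846), Rpl7 (0.25 ± 0.06, adjusted p = 0.0204) and Rpl30 (0.23 ± 0.05, adjusted p = 0.0165). Rps25 (0.24, adjusted p = 0.0355), named after its value was seen, rose as well. Many of these genes have processed copies that can take reads. The list was not uniform across old brains: brains 4, 5 and 7 stayed within the young range and the other 5 were above it. In old brains 1, 2 and 6 alone, 4 of 82 rose, and without the 4 old brains over 5 CPM of Tph2 none did. The medians there were 0.26 and 0.13. Respiratory chain subunits from the nucleus gave no call in 76 tested (median 0.08), nor did 31 proteasome subunits (0.09) or 9 tested protein-coding genes of the mitochondrial genome (0.09). Mitochondrial transcripts took 2.24% to 2.45% of the counts at 12 months and 2.38% to 2.74% at 26 months (exact permutation p = 0.0109). Pink1, the kinase that flags damaged mitochondria, rose by 0.26 ± 0.06 with 8 of 8 old brains above the young maximum (adjusted p = 0.0328), and its call was lost with 8 of 13 brains left out (at most 0.0871, without 12-month brain 7).

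Meningeal and perivascular fibroblast genes fell. Among 37 tested out of 39 listed, 16 fell and none rose, 43.2% against 0.258% of all genes, and the median log2 fold change was -0.79. Set against the young mean on the log2 scale, the list's median lay between -0.21 and 0.46 in the young brains and between -1.04 and -0.50 in the old ones, so that the 8 old brains were all below the young group. In old brains 1, 2 and 6 alone 9 of 37 fell with a median of -0.83, and 12 to 17 fell with 1 brain left out.

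Fmod (chr1:134037254-134048277), the collagen-binding proteoglycan fibromodulin, led. It had 25.2, 16.97, 17.6, 13.9 and 12.3 CPM at 12 months and 3.16, 4.08 and 6.50 CPM as the lowest, median and highest at 26 months. The groups were far apart and the log2 fold change was -1.92 ± 0.23 (adjusted p = 1.45e-05). Ogn, the proteoglycan osteoglycin, went from 24.4, 13.1, 11.1, 14.03 and 10.4 CPM to 3.38, 5.54 and 7.86 CPM (-1.33 ± 0.24, adjusted p = 0.00248). Young brain 1 was the highest for both, and Fmod and Ogn fell without it too (adjusted p = 0.000174 and 0.0248).

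Transporters of the meningeal barrier fell together. Slc22a6 and Slc22a8, the organic anion transporters OAT1 and OAT3, had 6.75 to 13.5 CPM and 15.5 to 18.9 CPM at 12 months. At 26 months they had 0.813 to 4.86 CPM and 5.96 to 13.2 CPM, with log2 fold changes of -1.88 ± 0.30 and -0.88 ± 0.15 (adjusted p = 0.000809 and 0.00156). Neither overlapped. Slc47a1, the cation extruder MATE1, had 8.87, 4.397, 3.23, 3.24 and 3.85 CPM in young brains and 0.722, 0.911 and 3.24 CPM at the low end, middle and high end of the old ones (-1.90 ± 0.34, adjusted p = 0.00234). Only old brain 5 reached the young range. Slc6a13, the GABA and taurine carrier GAT2, fell by 1.12 on the log2 scale (adjusted p = 0.00232). Old brain 5 was the highest of its group for Slc22a6, Slc47a1, Slc6a13 and Tbx18.

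Further meningeal genes that fell carry other functions. Gjb2, the gap junction protein connexin 26, fell by 1.07, and Aldh1a2, the retinoic acid enzyme RALDH2, by 1.33 on the log2 scale (adjusted p = 0.00182 and 0.00248). Tbx18, a transcription factor of mural and leptomeningeal cells, fell by 1.02 and Osr1, a transcription factor of mesenchyme outside the list, by 1.48 on the log2 scale (adjusted p = 0.00229 and 0.00234). All 8 old brains were below the young minimum for each of the 4. Ranbp3l, a nuclear export factor of mesenchymal cells, was also outside the list, with a log2 fold change of -1.43 ± 0.20 (adjusted p = 0.000103). Ptgds, the prostaglandin D synthase that meninges and oligodendrocytes release into cerebrospinal fluid, had 486, 327, 334, 366 and 279 CPM at 12 months and 134, 215 and 342 CPM at 26 months (-0.74 ± 0.19, adjusted p = 0.0499). Old brain 6 was within the young range. The call of Ptgds was lost with 12 of 13 brains left out, most of all without 12-month brain 1 (adjusted p = 0.194).

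**Figure D3:**
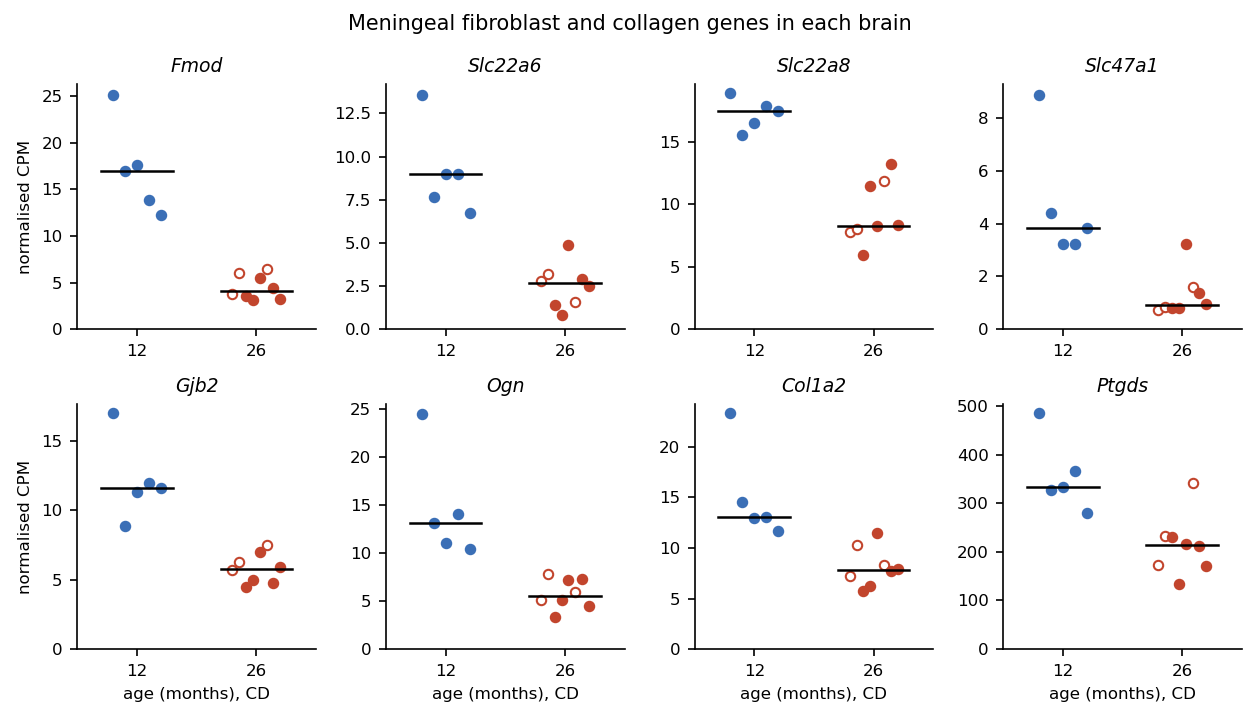
Each panel shows 1 gene that fell, with normalised CPM on a linear axis from 0 and a point for each brain of the 2 ages; the black bar is the group median and open red points are the 3 old brains with under 0.1% of Gm10800. Fmod falls from a median of 16.97 to 4.08 CPM, while Ptgds and Slc47a1 overlap between the ages in 1 old brain each.

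Few collagen genes fell. Of 44 genes for collagens and their processing, 3 fell (6.82%, against 0.258% of all genes) and none rose, with a median of -0.04. None of the 44 fell in old brains 1, 2 and 6 alone, where the median was -0.15. Col1a2 and Col1a1, the chains of collagen I, were at -0.90 ± 0.21 and -0.83 ± 0.22 (adjusted p = 0.0285 and 0.0499), and Pcolce, which speeds the processing of procollagen, at -0.72 ± 0.17 (adjusted p = 0.0328). Each of the 3 lost its call without 12-month brain 1 (adjusted p = 0.156, 0.225 and 0.110), which was the highest young brain for them, and the calls were lost with 4, 12 and 7 of the 13 brains left out in turn. Alb, the plasma protein albumin of liver, stood at 22.96, 1.12, 1.05, 5.19 and 3.10 CPM in young brains, highest in that same brain 1, and at 0.078 to 1.54 CPM in the old (-3.71 ± 0.83, adjusted p = 0.0196). Without brain 1 it was at -2.37 (adjusted p = 0.222). The part of brain 1, or of how much meninges was taken with each brain, in the meningeal fall was not tested beyond leaving brain 1 out, when 16 became 12 of 37.

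Choroid plexus genes gave no call in 26 tested. Their median was -0.49 and 2 of the 26 were above 0. In old brains 1, 2 and 6 the median was -1.07, again without a call, and limma voom gave a median of -0.90 with 1 gene lower. The list ran from -0.98 to 0.50 around the young mean among the young brains alone. Kcnj13, a potassium channel of choroid epithelium, had 5.58, 3.07, 4.54, 5.92 and 5.06 CPM at 12 months and 1.54 to 5.29 CPM at 26 months (-0.77 ± 0.36, adjusted p = 0.379). Igf2, a growth factor of choroid plexus and meninges, was at -0.93 ± 0.28 (adjusted p = 0.115), with 7 of 8 old brains below the young minimum. Ependymal genes had no call in 27 and a median of -0.05. Of 25 pericyte and smooth muscle genes, Tbx18 fell (4%, against 0.258% of all genes) and 1 rose (4%, against 1%). The gene that rose was Art3, an ecto-ADP-ribosyltransferase (0.81, adjusted p = 0.0210, named after its value was seen).

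Neuronal genes gave almost no calls. Of 46 synaptic genes, 1 fell (2.17%, against 0.258% of all genes), 7 were above 0 and the median log2 fold change was -0.14. Of 39 glutamate and GABA receptor subunits none was called, 4 were above 0 and the median was -0.13. The synaptic median per brain lay below the young minimum in 4 of the 8 old brains. It was 0.01 over the list without the 4 old brains over 5 CPM of Tph2, and with 4 region scores as covariates 5 synaptic genes fell. Pclo, a scaffold of the active zone, and Shank2, a postsynaptic scaffold, were at -0.22 ± 0.07 and -0.33 ± 0.12 (adjusted p = 0.133 and 0.215). Cholesterol synthesis and uptake genes had 3 of 26 above 0, no call and a median of -0.14, with Mvd, an enzyme of the mevalonate pathway, at -0.38 (adjusted p = 0.134) and all 8 old brains below the young minimum.

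Other abundant genes that fell moved by 0.17 to 0.87 on the log2 scale. Kcnq1ot1, a long noncoding RNA antisense to Kcnq1, had 805, 796, 769, 779 and 779 CPM at 12 months and 649, 711 and 746 CPM at 26 months (-0.17 ± 0.04, adjusted p = 0.0174). Brwd1, a bromodomain protein, fell from 226 to 235 CPM to 197 to 212 CPM (-0.17 ± 0.04, adjusted p = 0.00867). Both ranges were tight and apart. Slc7a11, the cystine importer of astrocytes and meninges, had 123, 89.6, 109, 107 and 107 CPM in young brains and 42.0, 70.9 and 96.9 CPM as the lowest, median and highest of the old (-0.62 ± 0.14, adjusted p = 0.0188). Nwd2, a NACHT and WD repeat protein, had 61.9, 81.0, 106, 51.4 and 99.9 CPM and then 32.5 to 49.6 CPM (-0.87 ± 0.19, adjusted p = 0.0156). Ift172, a subunit of the ciliary transport train, was at -0.24 ± 0.05 (adjusted p = 0.0100). Mgat5, a glycosyltransferase of the Golgi, and Eml6, a microtubule-binding protein, were at -0.25 ± 0.06 and -0.18 ± 0.05 (adjusted p = 0.0441 and 0.0430), and their calls were lost with 9 and 12 of 13 brains left out (at most 0.140 and 0.193, without 12-month brains 16 and 1). Among abundant genes that rose outside the main lists, Elmo1, an activator of Rac in phagocytosis, Gstm1, a glutathione transferase, and Zcchc24, a zinc finger protein, were at 0.25 ± 0.06, 0.30 ± 0.08 and 0.36 ± 0.09 (adjusted p = 0.0439, 0.0489 and 0.0445), and lost their calls with 8, 9 and 9 brains left out (at most 0.140, 0.145 and 0.117, without 12-month brains 1, 16 and 4). Strand use in counting is not given in the sources used here, so reads of Kcnq1ot1 and Kcnq1 may be mixed.

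Brain regions were not equally held by the 13 samples. Hindbrain markers were high in young brains 1 and 4 and in old brains 1, 2, 5, 6 and 8, and low in the other 6, so both ages contained both kinds. Tph2, the serotonin-making enzyme of the raphe, had 0.366, 0.205, 1.92, 0.324 and 0.938 CPM at 12 months and 2.80, 9.81, 1.19, 0.994, 11.8, 19.3, 1.004 and 17.9 CPM in old brains 1 to 8 (3.39 ± 0.87, adjusted p = 0.0486). Slc6a4, the serotonin transporter, was at 3.92 ± 1.07 (adjusted p = 0.0692). On KD the differences of these 2 genes were -0.92 and -1.11 (adjusted p = 0.824 and 0.818). Striatal markers ran from -0.81 to 0.63 around the young mean on the log2 scale in the young brains and from -1.04 to 1.65 in the old ones, with no call in 20 tested. The call of Tph2 was lost with 9 of 13 brains left out (at most 0.139, without 12-month brain 4). With 4 region scores as covariates, 257 genes rose and 136 fell, 20 of 39 disease-associated microglial genes rose and 20 of 37 meningeal genes fell.

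Red blood cell markers gave no call. Hbb-bs and Hba-a1, adult hemoglobin chains with near-identical copies, were at 1.12 ± 0.35 and 1.12 ± 0.34 (adjusted p = 0.123 and 0.105), highest in old brains 5 and 6, and none of 12 markers tested was called. Old brains 1, 2, 4 and 8 lay within the young range for the list. Olfactory, vomeronasal and taste receptor genes, which brain barely transcribes, summed to 196 to 231 CPM in the young brains and 212 to 1402 CPM in the old (exact permutation p = 0.0645). Of these genes 79 were tested, and 4 rose (5.06%, against 1% of all genes). The summed receptor level as a covariate left 132 genes that rose and 48 that fell. Under it 17 of 39 disease-associated genes, 7 of 25 complement genes and 15 of 37 meningeal genes were called, in the same directions as before, while glucocorticoid-induced genes went from 4 to 1, reactive astrocyte genes from 5 to 2 and endothelial genes that rose from 3 to none. Of the 74 called genes followed through the alternatives, 23 lost their call under the covariate, among them Lcn2 (log2 fold change 4.02, adjusted p = 0.0891), Plin4 (1.45, adjusted p = 0.0883), Gfap (0.93, adjusted p = 0.0612), Ly6a (0.98, adjusted p = 0.107), Bst2 (1.34, adjusted p = 0.0957) and Ptgds (-0.78, adjusted p = 0.0983). In old brains 1, 2 and 6 alone 45 of the 74 lost it.

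**Figure D4:**
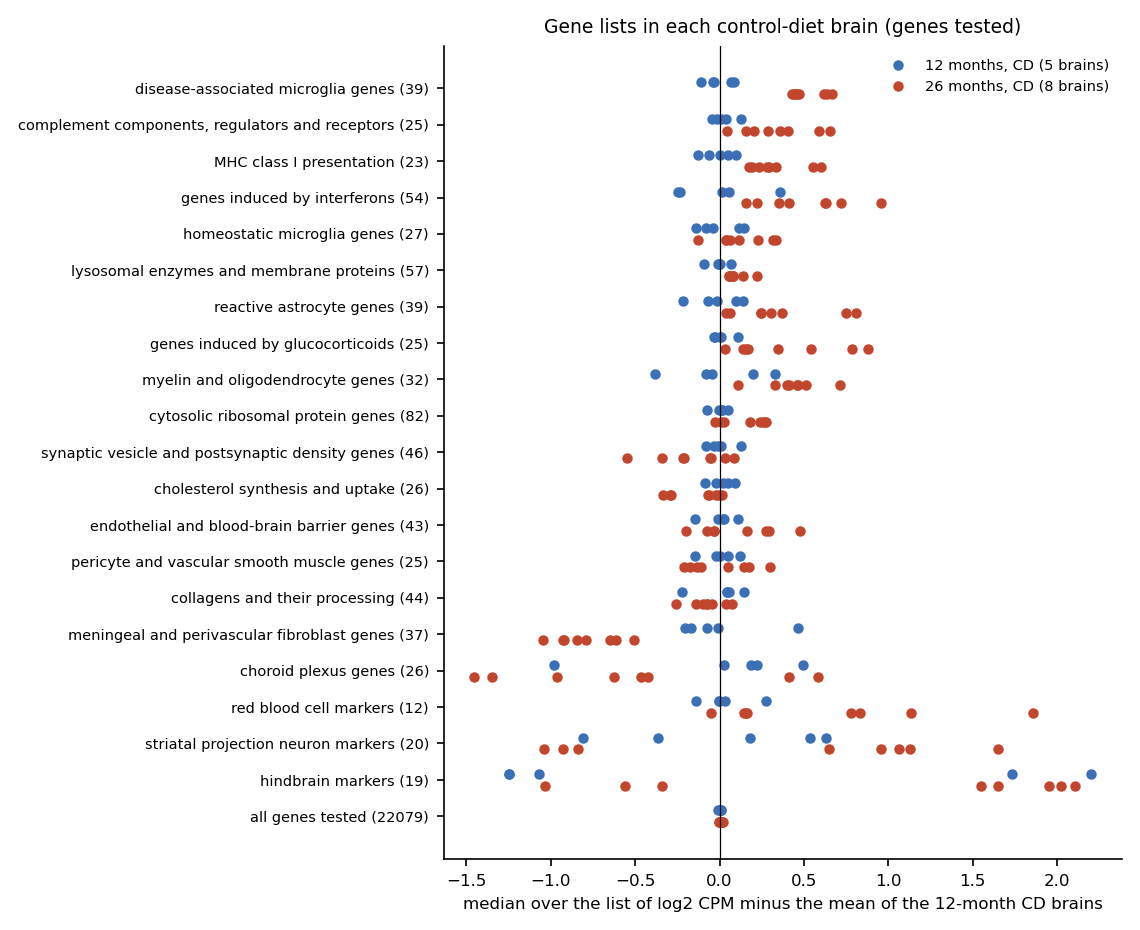
Each row is a gene list with the number of genes tested, and each point a brain, placed by the median over the list of log2 CPM minus the mean of the 5 young brains; blue points are 12-month and red points 26-month CD brains. The old brains lie wholly to the right for disease-associated microglia and MHC class I genes and wholly to the left for meningeal genes, while striatal and hindbrain markers scatter widely at both ages.

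The brains on KD allow the age difference to be read in separate animals. They comprised 7 brains at 12 months after a week of KD and 8 at 26 months after KD in alternate weeks, collected in a CD week, so that diet and its length differ from the CD groups. No brain is shared, while the spread between brains was estimated in 1 fit over all 28. On KD 124 genes rose with age and 40 fell (0.562% and 0.181% of those tested). Of the 221 genes that rose on CD, 212 had a positive difference on KD and 74 were called there, 33.5% of the CD calls and 59.7% of the KD calls. Of the 57 that fell, 53 were negative and 19 called, 33.3% and 47.5%. Over all genes tested 51.1% were positive on KD and 48.9% negative. The CD genes were picked for their CD difference, so that their medians, 0.99 on CD and 0.58 on KD upward and -0.87 and -0.59 downward, cannot be compared as effects.

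Named genes can be set side by side. Itgax was at 3.11 on CD and 2.71 on KD (adjusted p on KD = 3.12e-06), C1qa at 0.80 and 0.81 (3.12e-06), C4b at 1.82 and 1.45 (0.000824), Fmod at -1.92 and -1.38 (0.000334) and Slc22a8 at -0.88 and -0.82 (0.00153). Plin4 was at 1.40 and 0.10 (0.994), Lcn2 at 4.36 and 0.94 (0.873), Hapln2 at 0.99 and 0.09 (0.977) and Nwd2 at -0.87 and -0.04 (0.996). By list, 18 of 39 disease-associated genes rose on KD, 7 of 25 complement genes, 2 of 23 MHC class I genes and 1 of 54 interferon-induced genes, and 13 of 37 meningeal genes fell. The difference between the 2 age effects was tested for every gene. No gene passed (smallest adjusted p = 0.412, with 998 genes at an unadjusted p under 0.05), limma voom gave none and DESeq2 gave 2, Slc16a1, a monocarboxylate transporter of endothelium, and AC154659.1 (log2 differences of -0.57 and -1.55, KD minus CD, DESeq2 adjusted p = 0.0222 and 0.0298). No gene called on CD was called in the opposite direction on KD.

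**Figure D5:**
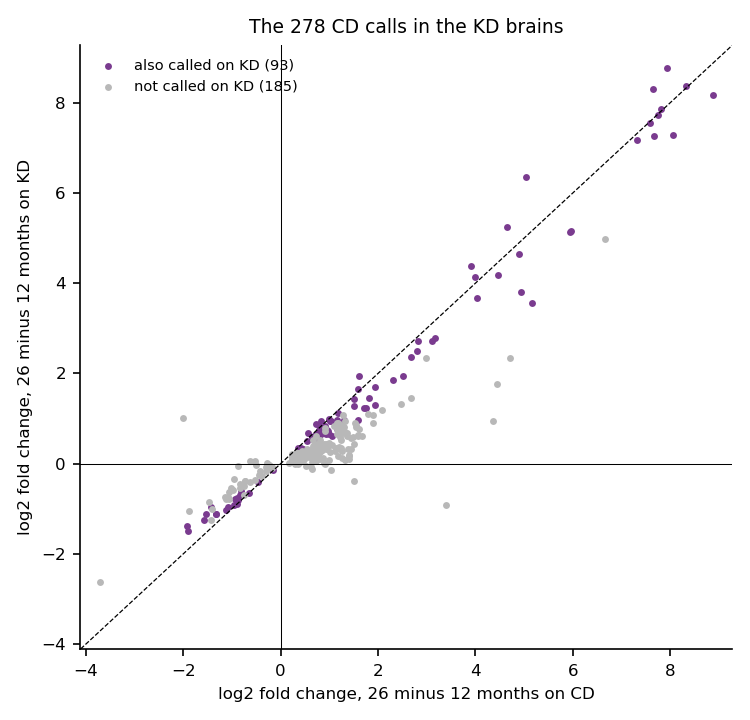
Each point is 1 of the 278 genes called on CD, with its log2 fold change from 12 to 26 months on CD (horizontal axis) and on KD (vertical axis); purple points were also called on KD (74 higher and 19 lower) and the dashed line marks equal differences. Nearly all points lie in the quadrants of equal sign, and Lcn2 (4.36 on CD and 0.94 on KD) and Tph2 (3.39 and -0.92) are among those far below the line.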

How the data were processed

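RNA was isolated from whole brain, stripped of ribosomal RNA and sequenced on an Illumina NovaSeq. The authors trimmed reads with Trimmomatic, aligned them with STAR and quantified genes with RSEM, and the submitters' processing notes name GRCm38. Versions and strand use are not given in the sources used here. The deposited values are whole-number counts per gene, and whether they are rounded RSEM estimates is not stated. Symbols and coordinates came from GENCODE vM21 on GRCm38 for 54409 of 54446 genes. Promoter sequences came from RefSeq on GRCm38.p6, matched by symbol for 13166 of 22066 tested symbols.

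Groups followed the labels. One edgeR 4.0.16 quasi-likelihood fit (R 4.3.3) with TMM scaling and filterByExpr covered the 28 brains in 4 groups, and the age difference on CD was a contrast of it. Genes were called at a Benjamini-Hochberg adjusted p under 0.05 over 22079 genes. Single values per library were compared by two-sided exact permutation tests of means. The common biological coefficient of variation was 0.206. No pair of brains held the same library. On simulated counts for this contrast with 21730 genes tested, edgeR recovered 76 of 100 genes changed by 1 on the log2 scale and 98 of 100 changed by 2, with 11 false calls. The scarcest genes were not among those changed. The simulated brains did not differ in Gm10800, receptor or region signal, so these figures do not cover such differences.

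Named genes were, for each direction, the 10 calls of lowest p past a log2 fold change of 1 and a mean log2 CPM of 1, the 10 called genes of highest CPM in each direction (both without predicted genes, clones and pseudogenes, and some are not reported here), and genes chosen among the 3 of smallest p in each list. The members, lists and tests were chosen with earlier results of these data known. Alternatives were DESeq2 1.42.0, limma 3.58.1 voom with sample quality weights, other scalings and filters, covariates, subsets of brains and each brain left out. Figures used Python 3.11.15 and matplotlib 3.10.9.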

Additional observations from a re-analysis of the deposited data

Results flagged for a closer look

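Values far from the rest of their group, by Dixon's criterion, were found in 19 of 180 groups of values examined (10.6%), where chance flags about 1 in 20. Old brain 5 held 7 of the 19. It had the highest share of Gm10800 (1.22%), the highest receptor gene level (1402 CPM), the highest share of counts in its 10 leading genes (5.34%) and the highest scaling factor (1.09) of the old CD group. It was also apart for Tbx18 (3.74 CPM), Slc47a1 (3.24 CPM) and Mmp12 (3.12 CPM), all highest. Young brain 1 held 6, all of them the highest of the young brains: Slc6a13 (16.1 CPM), Slc47a1 (8.87 CPM), Ogn (24.4 CPM), Col1a2 (23.3 CPM), Ifitm3 (7.23 CPM) and Alb (22.96 CPM).

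The other 6 values came from 6 brains. Old brain 6 was highest for Zcchc24 (165 CPM), old brain 4 highest for Bst2 (3.16 CPM) and old brain 3 lowest for Ctsz (22.3 CPM). Young brain 13 was highest for Ctss (50.04 CPM), young brain 16 highest for Cd33 (16.1 CPM) and young brain 4 lowest for Csf1 (26.0 CPM).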

How the results depend on the processing

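The signs of the 221 and 57 genes were kept under every alternative for each of them that was still tested there, while the counts moved. As the genes were picked in these same brains, kept signs are no separate test. On CD the genes that rose and fell numbered 393 and 106 with DESeq2, 294 and 107 with limma voom, 132 and 48 with receptor genes as a covariate, 257 and 136 with 4 region scores as covariates, and 90 and 31 in the 13 CD brains alone. Without a filter on low counts 146 rose and 47 fell, with a median log2 fold change of 0.21 over all genes, and with at least 10 counts in every brain 134 and 41. Alternatives added after seeing the data gave 70 and 18 without old brains over 0.1% Gm10800, 148 and 45 without those over 80 CPM of Plin4 and 100 and 31 without those over 5 CPM of Tph2. With 1 brain left out 108 to 249 rose and 29 to 61 fell. On KD 197 rose and 75 fell with DESeq2, 49 rose with at least 10 counts in every brain, 66 rose in the 15 KD brains alone, and 54 rose and 21 fell with the receptor covariate. For the difference between diets DESeq2 gave 2 genes, while limma voom, scaling by total counts and at least 10 counts in every brain gave none, and no other setting was run. The causes of these shifts were not tested, beyond fewer genes or brains where a setting leaves them out. Under the alternatives named genes stayed on their side of the threshold in 1799 values, lost a call in 493, gained one in 14 and turned sign in none, and 41 of 74 called genes kept their call with any 1 brain left out.

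Replicate numbers 1, 4 and 7 occur in both ages. Deviations of same-numbered brains correlated at 0.19, -0.23 and -0.08, ranking 3, 6 and 8 among the 8 old brains. These 3 values are too few to decide whether the numbers paired the samples, which were treated as unpaired. With a replicate block 15 genes rose and 5 fell.

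Groups of 5 and 8 brains, with 7447742 to 12744415 counts each, limit genes of a few CPM most. Time on diet, collection and library handling cannot be told apart from age.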
